A study of Gelatoporia subvermispora and Trametes versicolor with 24 samples.

Results

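Autophagy, the process by which a cell wraps part of its own contents in a membrane and breaks it down in the vacuole, was followed through 10 genes of the white-rot fungus Gelatoporia subvermispora. The members were all genes whose identifier in the deposited count tables starts with ATG, namely ATG1, ATG3, ATG4, ATG12, ATG15A, ATG15B, ATG16, ATG18, ATG24 and ATG27. They are 10 of 12313 genes in the tables of this fungus, of which 110 carry a symbol. The genes of the other fungus of the series, Trametes versicolor, have other identifiers. None of them starts with ATG, which does not show that this fungus lacks such genes. The symbols were taken as the files give them, and the roles stated here are those of the Saccharomyces cerevisiae proteins of the same name.

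In yeast, a starved or stressed cell switches on the kinase Atg1, which is held back by TOR kinase while nutrients are plentiful. The lipid kinase Vps34 then marks the growing membrane with phosphatidylinositol 3-phosphate, and proteins that bind this lipid, such as Atg18, gather on it. A pair of ubiquitin-like systems, which use Atg3, Atg4, Atg12 and Atg16, attach the small protein Atg8 to the membrane, and the finished vesicle fuses with the vacuole, where the lipase Atg15 opens it. In filamentous fungi the same process recycles older mycelium and supports growth when nutrients run low.

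The series concerns how white-rot fungi, which degrade the lignin of wood, break down methoxylated aromatic compounds. Every culture used here was G. subvermispora strain FP-105752, labelled a monokaryon (mycelium with a single nuclear type), a label that read counts were not used to check. Flasks stood at 28 °C with 5 g/L cellobiose for 12 days, and all of them, controls included, were then given 5 mM ascorbic acid and 1 mM α-tocopherol. After 30 min, 3 flasks received vanillate, a methoxylated aromatic acid related to lignin, and 3 received water, in 2 pulses 12 h apart, with vanillate at a final 2 mM. Mycelium was collected 12 h after the last pulse, on day 13.

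Each flask is the sum of 2 libraries that carry the same replicate number, and flasks held 6119420 to 12333618 gene counts. A single ATG gene had 182 to 2232 counts in a flask. The share of reads discarded for low alignment quality was 4.04% to 5.57% in water flasks and 5.98% to 12.3% in vanillate flasks, with the highest value in vanillate replicate 1, the shallowest flask. Reads aligned outside any gene also separated the groups, at 7.09% to 7.41% in water flasks and 5.86% to 6.27% in vanillate flasks. The part of these differences in the results was not tested. Leaving out a flask cannot test it, since every vanillate flask differed from every water flask in both shares. In whole mycelium, fewer cells that use a gene and less of its RNA per cell cannot be told apart.

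With vanillate, 7 of the 10 ATG genes fell, 0 rose and 3 did not pass the test. The genes that fell were the lipase genes ATG15A and ATG15B, the conjugation genes ATG3, ATG4 and ATG16, the lipid-binding ATG18 and the membrane protein gene ATG27. The test was edgeR's quasi-likelihood F test over all genes, and calls were made where the p adjusted by the Benjamini-Hochberg method was under 0.05. By the same test 25.9% of the 10318 genes tested were called lower and 25.5% higher. Among the 106 tested genes with a symbol, the 10 members included, 45 were called lower, a larger share than over all genes. As to the count of 0 that rose, 0 members were higher at an unadjusted p under 0.05 in edgeR. By the DESeq2 Wald test 0 were called higher, where 22.5% of all genes were. The changes were small, from a log2 fold change of -0.50 to one of 0.05, which is 29.1% lower to 3.41% higher. Levels are given in CPM, counts brought to a common library total with TMM scaling. Gene lengths were not used here, so levels are compared between flasks for a gene and never between genes.

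The 10 ATG genes together took 0.105%, 0.107% and 0.107% of gene counts in the water flasks and 0.0823%, 0.0818% and 0.0833% in the vanillate flasks. The groups did not overlap in this share, and the 3 vanillate flasks lay close together although their totals differed. This share rests on library totals, by which the median log2 fold change of all genes was -0.14 and that of the members -0.41. With TMM scaling the members' median log2 fold change was -0.29, against -0.01 over all genes tested. All 3 vanillate flasks lay below all 3 water flasks in 7 members, the called ones, and in 30.1% of the genes tested.

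**Figure D1:**
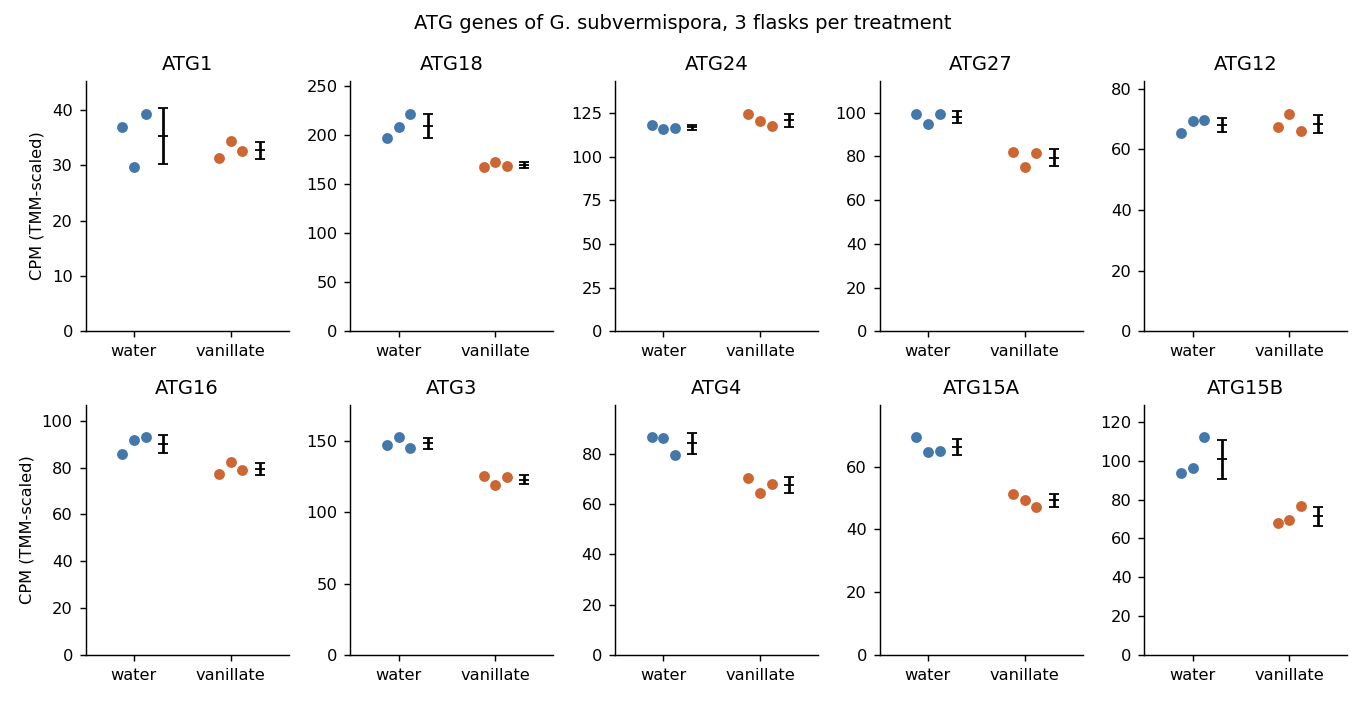
Level of each ATG gene in CPM (TMM-scaled, linear axis from 0) in the 3 water flasks (blue) and the 3 vanillate flasks (orange), with the mean and SD of each group in black to the right of its points. The groups stand apart in 7 genes and overlap in ATG1, ATG24 and ATG12.

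The kinase gene ATG1, whose yeast product starts autophagy, was at 37.0, 29.7 and 39.3 CPM in the water flasks and at 31.2, 34.3 and 32.6 CPM in the vanillate flasks. The groups overlapped, and water replicate 2 was the lowest flask of all. Its log2 fold change was -0.11 (SE 0.11, adjusted p = 0.421), with a 95% interval of -0.34 to 0.12. ATG1 was the member with the fewest counts, 993 over the water flasks and 897 over the vanillate flasks, and its interval was the widest. A fall as large as the members' median lies inside that interval, so these flasks do not resolve whether ATG1 moved like the others.

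ATG18 carries the symbol of a protein that binds phosphatidylinositol 3-phosphate and works with Atg2 in lipid transfer to the growing membrane. It stood at 197, 208 and 222 CPM in water and at 167, 172 and 169 CPM with vanillate. Every vanillate flask was lower than every water flask, and the vanillate flasks were the closer group. The means were 209 ± 12.3 and 169 ± 2.77 CPM (SD, n = 3). On the log2 scale the difference was -0.30 (SE 0.06), and ATG18 fell with an adjusted p of 0.0013.

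ATG24 also has the symbol of a protein that binds this lipid, a sorting nexin that serves selective forms of autophagy and the return of proteins from endosomes. Its levels were 118, 116 and 116 CPM in water and 125, 121 and 117 CPM with vanillate. The groups overlapped, and the log2 fold change was 0.05 (SE 0.06) with an adjusted p of 0.517. It was -0.08 when libraries were scaled by their totals. The 95% interval was -0.08 to 0.18, and its lower end lies above the members' median of -0.29.

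ATG27 encodes, by its symbol, a membrane protein that in yeast helps the carrier protein Atg9 to cycle between compartments. Water flasks held 99.4, 95.1 and 99.6 CPM and vanillate flasks 81.9, 75.3 and 81.4 CPM. The groups were separated by more than the range within either of them. The log2 fold change was -0.31 (SE 0.06, adjusted p = 0.00116).

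Of the 4 members named for proteins of the conjugation systems, 3 fell, where 25.9% of all genes tested were called lower. Other parts of these systems, such as Atg8 and Atg5, are not among the members. ATG3, named for the enzyme that hands Atg8 to its lipid, was at 147, 153 and 145 CPM in water and at 125, 119 and 125 CPM with vanillate. All vanillate flasks were lower, and the means were 148 ± 3.90 and 123 ± 3.44 CPM (SD, n = 3). The log2 fold change was -0.27 (SE 0.06, adjusted p = 0.00186). With the first library of each flask alone the value was -0.18 and the call was lost (adjusted p = 0.0839).

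ATG4, named for the protease that trims Atg8 before use and releases it afterwards, was at 86.5, 86.3 and 79.4 CPM in water and at 70.4, 64.3 and 67.9 CPM with vanillate. The highest vanillate flask was below the lowest water flask. ATG4 fell with a log2 fold change of -0.32 (SE 0.07) and an adjusted p of 0.00126.

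ATG16, named for the protein that joins the Atg12 and Atg5 conjugate and places it on the membrane, stood at 85.8, 91.7 and 93.0 CPM in water and at 77.4, 82.4 and 78.9 CPM with vanillate. The groups did not overlap, though the gap between the nearest flasks was small. Its log2 fold change of -0.18 (SE 0.06, adjusted p = 0.0306) was the smallest that passed. Leaving out water replicate 2 or water replicate 3 ended the call (adjusted p = 0.097 and 0.0842), and so did leaving out vanillate replicate 1 or vanillate replicate 3 (0.0882 and 0.0819). It was also lost with the DESeq2 Wald test (adjusted p = 0.119), with the second library of each flask (0.112) and at equal depth (0.0709).

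ATG12, the ubiquitin-like partner in that conjugate, was at 65.5, 69.4 and 69.5 CPM in water and at 67.3, 71.7 and 66.1 CPM with vanillate. The flasks of both groups were interleaved. Its log2 fold change was 0.01 (SE 0.07, adjusted p = 0.938) with a 95% interval of -0.14 to 0.15, and it was -0.12 with library totals. ATG12 and ATG16 thus gave different calls although their yeast products act in the same complex, and the difference between them was tested as a ratio within flasks.

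The lipase genes changed most. ATG15B was at 93.7, 96.4 and 112 CPM in the water flasks and at 67.8, 69.4 and 76.6 CPM in the vanillate flasks. Replicate 3 was the highest flask of both groups, and the groups did not overlap. Its means were 101 ± 9.90 and 71.3 ± 4.67 CPM (SD, n = 3). The log2 fold change of -0.50 (SE 0.08) had a 95% interval of -0.67 to -0.33 and an adjusted p of 0.000138 in edgeR.

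ATG15A, the other gene with this lipase symbol, was at 69.3, 64.7 and 64.8 CPM in water and at 51.3, 49.2 and 47.2 CPM with vanillate. The groups did not overlap, and the means were 66.3 ± 2.59 and 49.2 ± 2.09 CPM (SD, n = 3). Its log2 fold change was -0.43 (SE 0.07, 95% interval -0.58 to -0.28, adjusted p = 0.000172). When the test asked for a change beyond 1.2-fold, these 2 lipase genes were the members still called (adjusted p = 0.00619 for ATG15B and 0.0168 for ATG15A), against 14.6% of all genes called lower by that test. With 2 of the 10 members, the count was near that share. The 5 other members that fell had an adjusted p of 0.198 to 0.955 in the 1.2-fold test.

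**Figure D2:**
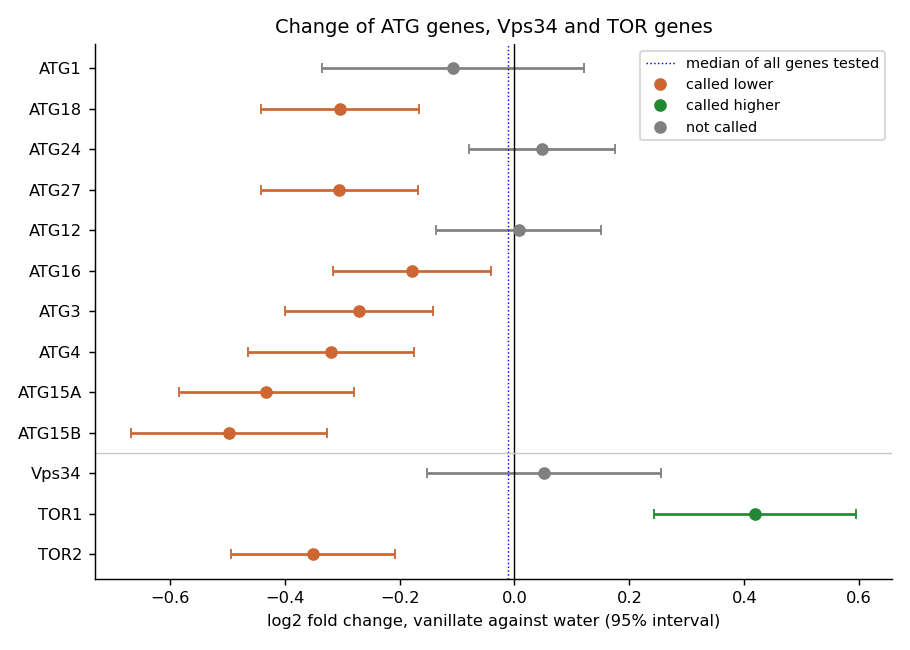
Log2 fold change of vanillate against water (points) with its 95% interval (bars) for the 10 ATG genes and, under the grey line, Vps34, TOR1 and TOR2, from 3 flasks per group. The lipase genes ATG15A and ATG15B lie farthest to the left, at -0.43 and -0.50, and TOR1, at 0.42, is the only gene shown that was called higher.

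A ratio of a pair of genes within a flask does not depend on how libraries are scaled, so 5 such ratios were compared between treatments with a two-sided exact permutation test. With 3 flasks against 3 the smallest p that the test can give is 0.1, so none could pass 0.05. The log2 ratio of ATG15A to ATG15B counts was -0.44, -0.57 and -0.79 in water and -0.40, -0.50 and -0.70 with vanillate. The groups overlapped and the difference was 0.07 (exact permutation p = 0.6, adjusted over the 5 ratios 0.6), and the test at this size cannot show whether the lipase genes fell by different amounts.

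The ratio of ATG12 to ATG16 was higher in every vanillate flask. Its log2 values were -0.39, -0.40 and -0.42 in water and -0.20, -0.20 and -0.26 with vanillate, a difference of 0.18 (exact permutation p = 0.1, adjusted 0.167). The ratio of ATG3 to ATG12 was lower in every vanillate flask, at 1.17, 1.14 and 1.06 against 0.90, 0.73 and 0.92 on the log2 scale. That difference was -0.27 (exact permutation p = 0.1, adjusted 0.167), and it was -0.15 with the first library of each flask and -0.37 with the second.

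ATG18 to ATG24, the pair of lipid-binding proteins, also separated the groups. The log2 ratio was 0.74, 0.85 and 0.93 in water and 0.42, 0.51 and 0.52 with vanillate, a difference of -0.35 (exact permutation p = 0.1, adjusted 0.167). For ATG4 to ATG3, the genes that act on Atg8 itself, the difference was -0.05 and the groups overlapped (exact permutation p = 0.2, adjusted 0.25). The flasks were thus separated in 3 of the 5 ratios, each of them a ratio between a gene that fell and one that did not pass. Such a ratio largely repeats the calls of its genes, so these 3 add no separate support. The share of other gene pairs that separate was not computed.

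**Figure D3:**
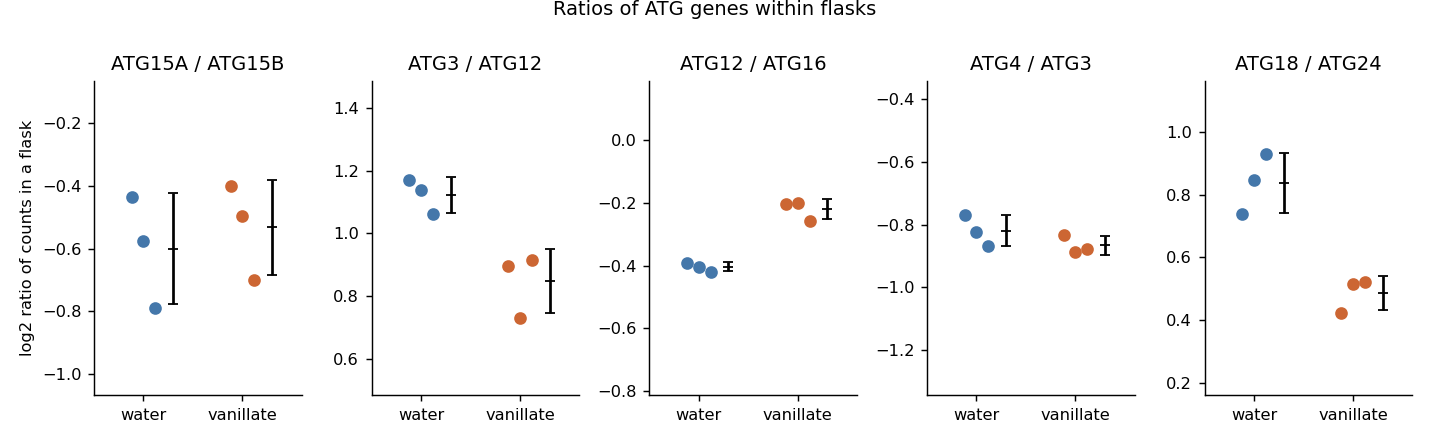
Log2 ratio of the counts of 2 ATG genes within each flask (points), with the mean and SD of each group in black; each panel spans the same height on the log2 scale but is centred on its own values. Water and vanillate flasks are apart for ATG3 / ATG12, ATG12 / ATG16 and ATG18 / ATG24, and overlap for ATG15A / ATG15B and ATG4 / ATG3.

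Other genes of the pathway were taken from a list of symbols, and genes without a symbol could not be matched. The list held TOR, Vps34 and their partners, other nutrient-signalling genes such as SNF1 and SCH9, vacuole genes, NBR1, and further ATG or APG names. The tables held 3 of the list, namely TOR1, TOR2 and Vps34. In this list 1 gene rose, 1 fell and 1 did not pass, where 25.5% of all genes tested were called higher and 25.9% lower. TOR1 was at 49.4, 46.3 and 42.9 CPM in water and at 65.2, 63.5 and 56.8 CPM with vanillate. All vanillate flasks were higher, and TOR1 rose by 0.42 on the log2 scale (SE 0.08) with an adjusted p of 0.000716.

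TOR2, the other gene with the symbol of this nutrient-sensing kinase, was at 139, 121 and 127 CPM in water and at 104, 101 and 99.0 CPM with vanillate. It moved the other way, without overlap, by -0.35 (SE 0.07, adjusted p = 0.000568). Against a change of 1.2-fold the adjusted p was 0.0391 for TOR1 and 0.101 for TOR2. The counts of TOR1 and TOR2 are of RNA, and the activity of the kinases was not measured.

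The lipid kinase gene Vps34, whose product makes the lipid that Atg18 and Atg24 bind, was at 29.1, 32.8 and 35.8 CPM in water and at 32.4, 34.8 and 33.8 CPM with vanillate. The vanillate flasks lay within the range of the water flasks. The log2 fold change was 0.05 (SE 0.09, adjusted p = 0.674) with a 95% interval of -0.15 to 0.25, and it was -0.07 with library totals.

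Of all genes tested, 51.1% had a log2 fold change below 0. The falls of the ATG genes were small beside those of other genes that passed the test, which are genes chosen for falling. Those genes were not matched to the members for counts or SE, and a gene with a large SE passes only with a large fall. The median over the 2675 genes called lower was -0.54, and each of the 7 called ATG genes lay closer to 0 than that. A log2 fold change of -1 or lower was reached by 401 of the genes called lower, or 15.0%, and by 0 of the 10 ATG genes. Of all genes tested, 15.2% had a lower log2 fold change than ATG15B, 26.4% a lower one than the members' median and 56.0% a lower one than ATG24.

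**Figure D4:**
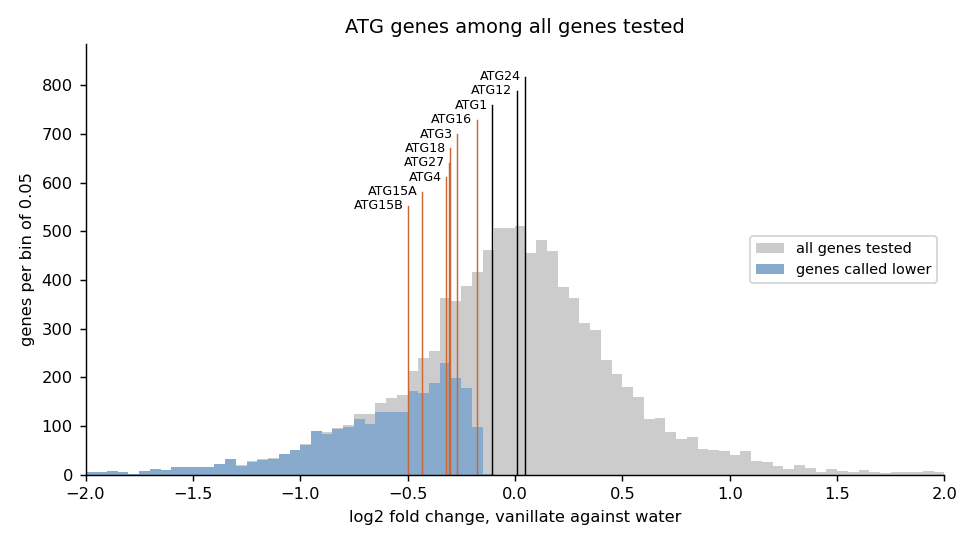
Number of genes per bin of log2 fold change for all 10318 genes tested (grey) and for the 2675 called lower (blue), with the 10 ATG genes as vertical lines, orange where called lower and black where not; 115 genes lie outside the axis. The ATG genes fall between -0.50 and 0.05, to the right of the far left tail.

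The 5 genes with a symbol whose log2 CPM followed the mean ATG profile most closely over the 6 flasks were MnP2, CsPh5, LiP2, ter14 and CsPh2, with Pearson correlations of 0.995, 0.992, 0.992, 0.990 and 0.989. They were picked among 96 other genes with a symbol. Their falls were larger than those of the ATG genes, from a log2 fold change of -1.39 for ter14 to -2.23 for CsPh2. The 6 flasks form 2 treatment groups and share their libraries with the profile, and 17.1% of the 10308 other genes tested reached a correlation of 0.9. Of the members, 6 of the 10 reached it against the profile they helped to make.

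The direction of the 7 falls did not depend on a single flask. Leaving out each flask in turn gave 6 or 7 members called lower and 0 called higher. Of all genes, 21.6% to 26.5% were then called lower and 21.5% to 25.6% higher. All 112 log2 fold changes of these 7 genes under the 16 other settings tried were below 0, and 99 of them stayed called. ATG16 accounted for 8 of the 13 that were lost. The settings reuse the same flasks, and the test against 1.2-fold leaves the log2 fold changes as they were. The 112 values are therefore not independent. With library totals, which move the median of all genes to -0.14 and the shares of all genes called lower and higher to 36.9% and 17.3%, the same 7 members were called lower and all 10 log2 fold changes were below 0.

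**Figure D5:**
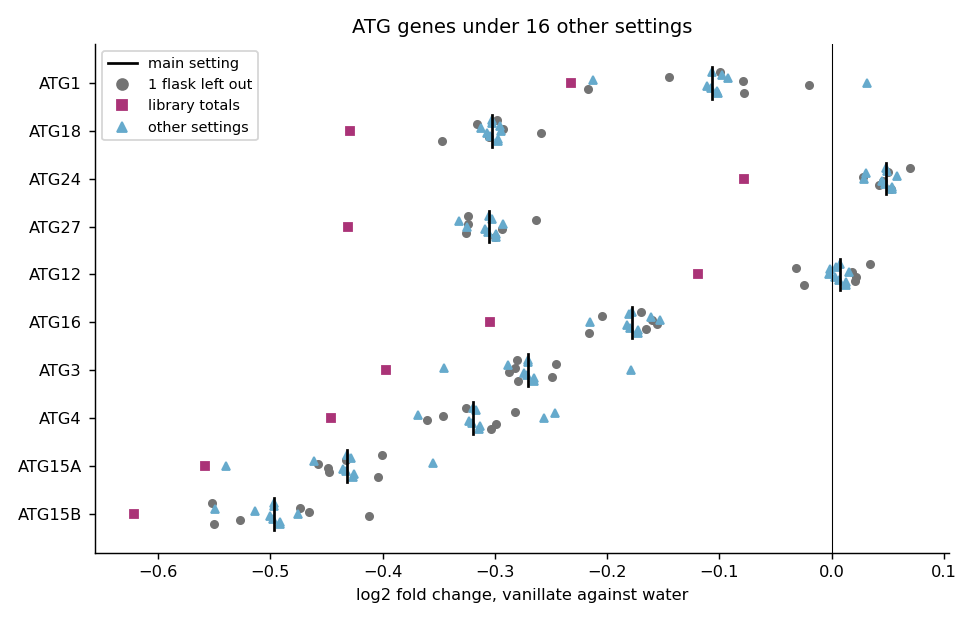
Log2 fold change of each ATG gene in the main setting (black bar) and under 16 others, namely 1 flask left out (grey circles), library totals (purple squares) and the remaining settings (blue triangles). The 7 genes called lower stay left of 0 throughout, and ATG1, ATG12 and ATG24 are found on both sides.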

How the data were processed

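For every one of 24 libraries the authors deposited unnormalized counts of reads by gene, and the 12 libraries of G. subvermispora were compared. Per the labels' protocols, DNase-treated total RNA went into a stranded total RNA kit and was sequenced as single reads. FastQC, STAR and HTSeq were used, per the submitters' processing notes. The sources used here do not give versions, genome build, annotation or strand setting. Reads shared by overlapping or near-identical genes could thus be lost or split. The line for reads aligned to several places was 0 in all 12 libraries, and what became of such reads is not known here. No sequences were at hand to show how alike ATG15A and ATG15B are. The 5 closing lines of unassigned reads (20.1% to 30.0% of reads per flask) were left out.

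Libraries with the same replicate number were summed, since their chi-square divided by its degrees of freedom lay between 1.014 and 1.064, against 2.88 to 8.65 between flasks of a group, over all genes. Over the 10 ATG genes alone these ranges overlap, at 0.975 to 2.89 (highest in water replicate 1) and 0.80 to 4.09, so the members by themselves do not tell repeats from flasks. No source says that flasks had separate seed cultures, and the p-values describe only the spread among these flasks, which may be technical. R 4.3.3 with edgeR 4.0.16 was used: filterByExpr (min.count 10, min.total.count 15), TMM, robust quasi-likelihood F test, two-sided, vanillate against water, tested on simulated data. All 10 members passed the filter. SE is the absolute log2 fold change over the square root of F. Log2 CPM used a prior count of 2. DESeq2 1.42.0 was an alternative. Reads have no molecular identifiers. All members, the pathway list and the 5 closest symbols were named by rule. Members and lists were chosen with earlier results of these data known.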

Additional observations from a re-analysis of the deposited data

How the results depend on the processing

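The count of 7 ATG genes called lower was 6 with the DESeq2 Wald test, with either library alone and at equal depth, and 7 with DESeq2 size factors, with no filter, and with a CPM of at least 5 in 3 flasks. It was 2 against a minimum fold change of 1.2, and 6 to 7 on leaving out a flask. No setting called a member higher, where 13.8% to 27.7% of all genes were called higher over the settings. The median log2 fold change of -0.29 was -0.41 with library totals, -0.24 with the first library and -0.27 at equal depth. On leaving out a flask it was -0.29 to -0.25. For scale, the members' median log2 CPM in a flask, centred per gene, had a pooled SD of 0.02 among flasks of a group. That SD is not an error of the fold change. Among values that did not pass, the sign turned for ATG12 with library totals (-0.12), the first library (-0.00217) and equal depth (-0.00114), for ATG24 (-0.0782) and Vps34 (-0.0743) with library totals, and for ATG1 with the first library (0.0314). On leaving out a flask ATG12 ranged from -0.0314 to 0.0341 and Vps34 from -0.025 to 0.126. The cause of these shifts was not tested. Over all genes, 21.7% were called lower with the DESeq2 Wald test and 24.4% at equal depth. With the first library the share was 22.4% and with the second 23.4%. It was 25.5% with DESeq2 size factors, 23.7% with no filter and 28.1% with the CPM filter. Against 1.2-fold it was 14.6%, and it was 21.6% to 26.5% on leaving out a flask.

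Water and vanillate flasks share the numbers 1 to 3, but the deviations of same-numbered flasks from their group means correlated at -0.03, 0.03 and -0.14, so the numbers were not taken as pairs. With a replicate block 7 members were again called lower and 0 higher, and the median was -0.29. That block called 24.7% of all genes lower and 24.4% higher. ATG1 had the fewest counts of the members and the largest spread between water flasks (CV 14.3%).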

Other observations

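The repeat libraries of a flask were compared for each ATG gene with an exact binomial test on their counts, which compares the libraries and not the treatments. Of 60 comparisons of a gene in a flask, 5 had an unadjusted p under 0.05 and 0 an adjusted one. The lowest p values were both in water replicate 1. There ATG15A was at 82.8 CPM in the first library and 65.1 CPM in the second (exact binomial p = 0.00322, adjusted p = 0.18), and ATG3 was at 140 and 164 CPM (exact binomial p = 0.006, adjusted p = 0.18), here scaled by library totals. The log2 fold change of ATG15A was -0.54 with the first libraries and -0.36 with the second, and that of ATG3 was -0.18 and -0.35, and the part of single flasks in these shifts was not tested. ATG3, which differed between libraries in 3 water flasks at an unadjusted p under 0.05 and not in one direction, is the member whose call depended on which library was used, together with ATG16.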
